A study of Homo sapiens with 3 samples.

Results

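CC chemokines are small secreted proteins that draw leukocytes towards the cells that release them. The genes described here are 9 members of the family, CCL2, CCL3, CCL4, CCL5, CCL20, CCL22, CCL26, CCL27 and CCL28, out of 23595 genes measured. They were taken by name from the annotation of the array files, and 22 transcripts on the arrays carry 1 of these names. All 9 names matched a current RefSeq symbol.

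The RNA came from HaCaT cells, keratinocytes of human epidermis that became immortal in culture without a transgene. One culture condition combined 1 µM all-trans retinoic acid with nicotinamide (ATRA+NIC), and one held 1 µM all-trans retinoic acid alone (ATRA). One was left untreated (control), and each lasted 36 h. ATRA is the form of vitamin A that activates the retinoic acid receptors, and it irritates skin. Nicotinamide is an amide form of vitamin B3 and a precursor of the coenzyme NAD. How much nicotinamide was used is not stated in the labels, and no array held cells given nicotinamide alone. Each condition has 1 single-colour NimbleGen expression array, so no difference below has a replicate check, none was tested, and no p-value can be given. The number of arrays is what limits the precision. HaCaT cultures are a single line of keratinocytes and not skin, where the leukocytes that answer these chemokines are also present.

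CC chemokines bind G protein-coupled receptors on leukocytes, and which receptor a member binds sets which cells it attracts. In skin, keratinocytes make several of them when cytokines such as interleukin 1 or tumour necrosis factor activate NF-kappaB, and others belong to allergic inflammation or to the normal homing of T cells to the epidermis. The genes of CCL3 and CCL4 lie side by side in a cluster of CC chemokine genes on chromosome 17, which also holds near-identical copies of both.

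Values are intensities on a linear scale as the authors deposited them, each summarised over 3 probes for a transcript. The level of a gene is the mean log2 intensity of its transcripts, given below also as a geometric mean intensity. Random control probes had a summarised intensity of 19.6 for ATRA+NIC, 18.4 for ATRA and 18.9 for control. The median transcript had an intensity of 298 for ATRA+NIC, 302 for ATRA and 302 for control. The processing had brought the arrays to a common distribution, so these close medians are no separate check of the scale. An intensity of 50, the lowest value that the authors kept in their value table, is used here as a floor. Where the dimmer side of a difference is under it, values under 50 were set to 50 and the fold is written as "at least". A gene passed the filter on dim genes when its level reached the median of all genes, an intensity of 246.5, on at least 1 array. Of the 9 chemokines, CCL2, CCL3, CCL4 and CCL5 passed, while CCL20, CCL22, CCL26, CCL27 and CCL28 stayed below that level on all 3 arrays. A difference was called by size alone, at 2-fold or more.

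As a check of the cell type, all 14 keratinocyte markers listed, among them KRT5, KRT14 and TP63, passed the filter, with summed intensities of 94280 in ATRA+NIC, 108806 in ATRA and 146064 in control cells. Of 20 leukocyte markers, 5 passed. Of these, CD3E, CD4 and CD79A are genes of lymphocytes, and CD14 and CD68 are genes of monocytes and macrophages. The defining B cell gene MS4A1, the T cell gene CD8A, the macrophage gene CD163 and the Langerhans cell gene CD207 had mean levels under 50 on all 3 arrays. Endothelial markers reached the filter in 1 of 10 genes, fibroblast markers in 3 of 10 and melanocyte markers in 1 of 6, where 12467 of all 23595 genes did. The endothelial gene was CDH5, with a log2 difference of 3.60 between ATRA and control cells. The endothelial markers summed to 3717 in ATRA+NIC, 3020 in ATRA and 719 in control cells. The fibroblast sums were 2851, 2633 and 2560 and the melanocyte sums 573, 475 and 354, in the same order. In RNA of a whole culture, fewer cells of a type and less RNA per cell cannot be told apart.

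**Figure D1:**
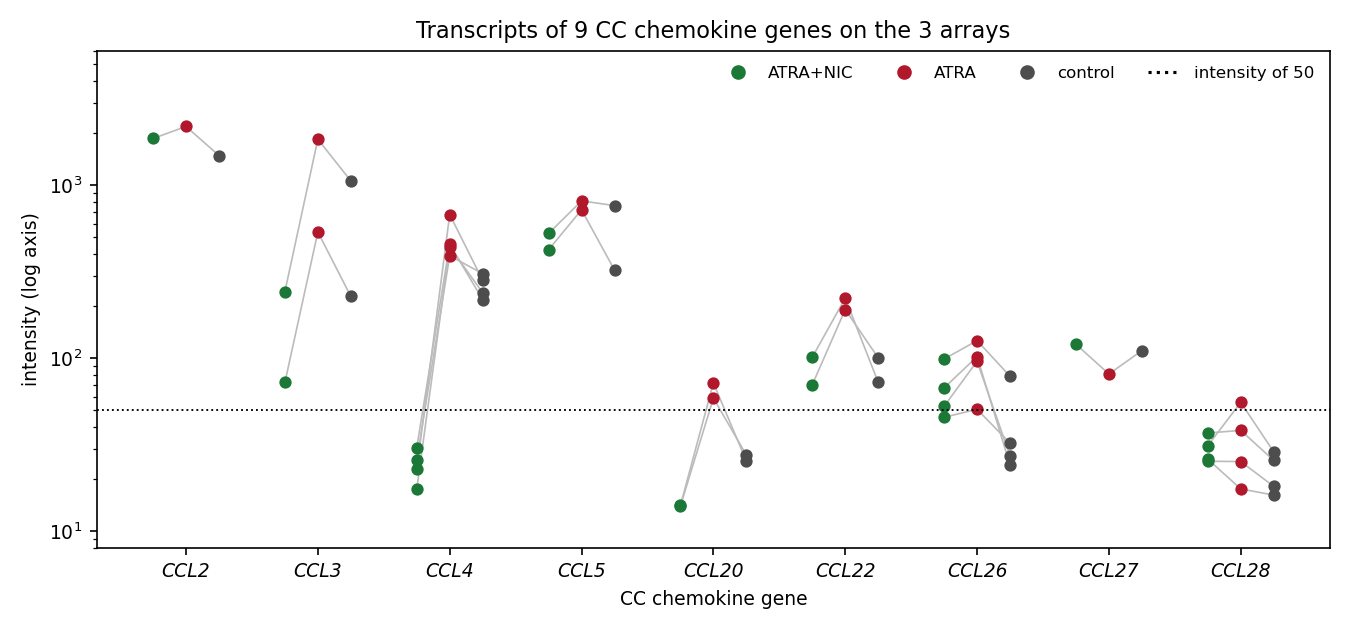
Intensity (log axis) of each of the 22 transcripts of the 9 CC chemokine genes on the ATRA+NIC, ATRA and control arrays, with 1 point per transcript and array and grey lines joining the points of a transcript. All 4 transcripts of CCL4 lie between 17.5 and 30.4 on the ATRA+NIC array, under the dotted line at 50, and between 218 and 678 on the other 2 arrays.

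CCL2, CCL3, CCL4 and CCL5 are the members known for attracting monocytes and T cells to inflamed tissue. The first of them, CCL2, also called MCP-1, acts on monocytes through the receptor CCR2. Its gene lies at chr17:29606408-29608335 on build hg18, the build of the files and of all positions below that name no other. Its single transcript had an intensity of 1865 in ATRA+NIC cells, 2188 in ATRA cells and 1486 in control cells. These values lie close together, 1.17-fold apart between ATRA+NIC and ATRA and 1.47-fold apart between ATRA and control. CCL5, or RANTES, acts on T cells and eosinophils through receptors that include CCR1 and CCR3, lies at chr17:31222607-31231490 and has 2 transcripts. One had 527 in ATRA+NIC, 812 in ATRA and 763 in control cells, and the other had 424 in ATRA+NIC, 721 in ATRA and 323 in control cells. Both were highest with ATRA and lower again with nicotinamide, by a log2 difference of -0.77 to -0.62. They disagreed on the difference between ATRA and control, which was 0.09 for one and 1.16 for the other. At the level of the gene, CCL5 was 1.54-fold higher in ATRA than in control cells and 1.62-fold lower in ATRA+NIC than in ATRA cells. Neither CCL2 nor CCL5 was called in any of the 3 comparisons.

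CCL3, also called MIP-1 alpha, acts on monocytes and T cells, among others through CCR1. Of its 2 transcripts, one had an intensity of 72.3 in ATRA+NIC, 537 in ATRA and 228 in control cells. The other had 243 in ATRA+NIC, 1847 in ATRA and 1061 in control cells. Both were highest with ATRA and lowest with ATRA and nicotinamide together, where they lay below the untreated cells. The gene was 7.51-fold lower in ATRA+NIC than in ATRA cells, a log2 difference of -2.91, and its transcripts gave -2.93 and -2.89. Against control it was 3.71-fold lower in ATRA+NIC cells, a log2 difference of -1.89. ATRA alone was 2.03-fold above control, just past the 2-fold rule. The transcripts gave 0.80 and 1.24 there, so the call depends on the transcript taken, and the brighter transcript alone was under 2-fold.

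CCL4, also called MIP-1 beta, acts on T cells and macrophages and was the member that differed most. Its 4 transcripts had intensities of 25.8, 17.5, 30.4 and 22.7 in ATRA+NIC cells. The same transcripts had 391, 441, 456 and 678 in ATRA cells, and 308, 239, 218 and 282 in control cells. With ATRA and nicotinamide together all 4 were near the summarised intensity of the random probes on that array, 19.6, while in ATRA and in control cells all 4 were well above 50. CCL4 was therefore at least 9.61-fold lower in ATRA+NIC than in ATRA cells, with a measured log2 difference of -4.35 and transcripts between -4.90 and -3.91. It was at least 5.19-fold lower in ATRA+NIC than in control cells, with a measured log2 difference of -3.46. ATRA alone was 1.85-fold above control, below the 2-fold rule, with transcripts between 0.34 and 1.27.

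CCL4 and CCL3 can be placed among all 12467 genes that passed the filter. Both passed it through their ATRA and control levels only, so their low ranks with nicotinamide describe them and are no test. Between ATRA+NIC and control cells, CCL4 had the lowest difference of all of them (rank 1), also with values under 50 set to 50, and CCL3 was number 11 from the bottom. Between ATRA+NIC and ATRA cells, CCL4 was number 7 from the bottom, or number 23 with values under 50 set to 50, and CCL3 was number 42. Against this, 470 genes were at least as much higher in ATRA than in control cells as CCL3, and 626 at least as much as CCL4. CCL2 and CCL5 were further inside the distribution, with 1325 and 1127 genes at least as high in that comparison.

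**Figure D2:**
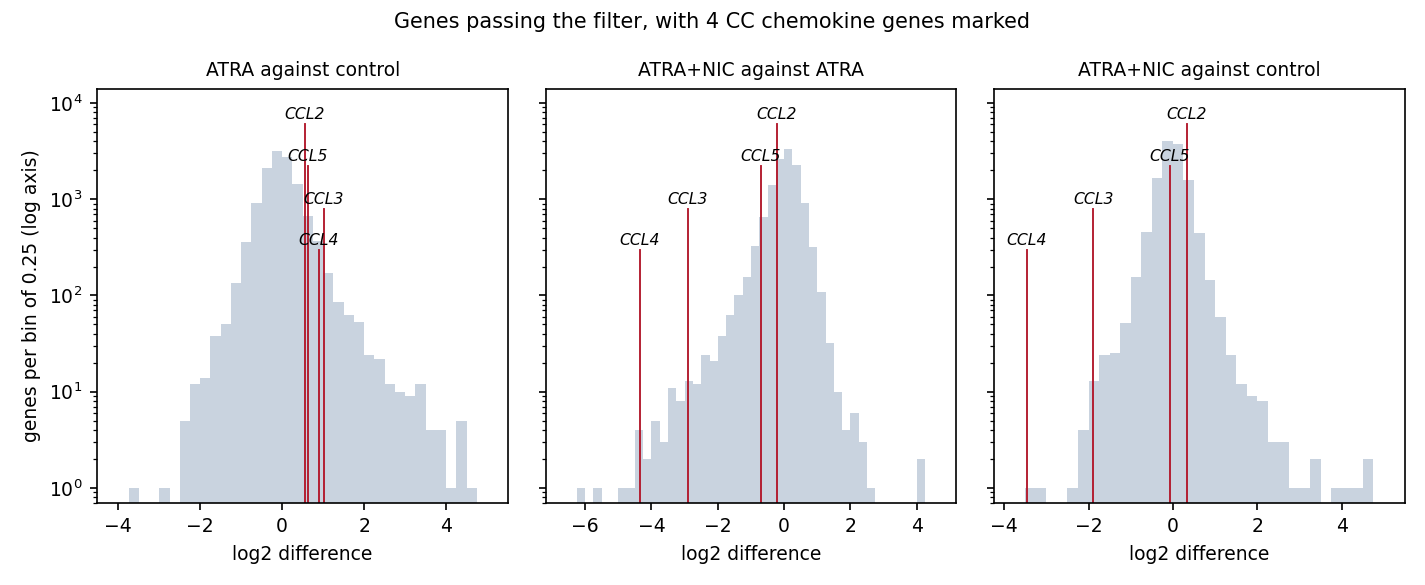
Number of genes (log axis) per bin of log2 difference for the 12467 genes passing the filter, for ATRA against control, ATRA+NIC against ATRA and ATRA+NIC against control, with red lines at the differences of CCL2, CCL5, CCL3 and CCL4. CCL4 lies at -4.35 in the second panel and at -3.46, the lower edge of all genes, in the last panel.

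The array carries further probes for near-identical copies of CCL3 and CCL4. The copies are CCL3L1, CCL3L3, CCL4L1 and CCL4L2, named here by their current RefSeq symbols through the Entrez gene number, since the array annotation uses the names CCL4L1 and CCL4L2 the other way round. Probes may bind more than 1 of these genes, so which of them gave the signal is uncertain. CCL3 was at chr17:31439716-31441600 and CCL4 at chr17:31455332-31457127. With the copies, the transcripts of these 6 genes lay within chr17:31439716-31665959. Across these 16 transcripts the intensity had a lowest value of 17.5, a median of 35.0 and a highest value of 243 in ATRA+NIC cells, against 245, 448 and 1847 in ATRA cells and 54.1, 223 and 1061 in control cells. The highest transcript with nicotinamide was thus below the lowest with ATRA alone. In ATRA+NIC cells 5 of the 16 reached 50, while all 16 did so in ATRA and in control cells.

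All 16 transcripts were at least 2-fold lower in ATRA+NIC than in ATRA cells, with a median log2 difference of -3.44 and a range of -4.90 to -1.04. Of all 42947 named transcripts, 5.19% were so. Against control, 14 of the 16 were at least 2-fold lower in ATRA+NIC cells, with a median of -2.09, where 2.89% of all named transcripts were. The exceptions were 2 transcripts of CCL4L1, one of which was 0.20 above control. For ATRA against control 10 of the 16 were at least 2-fold higher, with a median of 1.15, where 5.33% of all named transcripts were. At the level of the gene, CCL3L1 was at least 10.8-fold lower, CCL3L3 4.90-fold lower, CCL4L1 at least 6.02-fold lower and CCL4L2 at least 4.91-fold lower in ATRA+NIC than in ATRA cells. Since the 6 genes share sequence, they do not count as 6 separate measurements.

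Outside that stretch, chromosome 17 carries 12 other CC chemokine genes, CCL2 and CCL5 among them, with 22 transcripts between chr17:29606408-31422954. None of these 22 was 2-fold different in either direction for ATRA+NIC against ATRA, where the median was -0.09, or for ATRA+NIC against control, where it was 0.27. Of all named transcripts, 5.19% were at least 2-fold lower and 3.83% higher in the first comparison, and 2.89% and 2.95% in the second. At such shares few of 22 transcripts would be past 2-fold. Only 9 of them reached an intensity of 50 in ATRA+NIC cells, 9 in ATRA cells and 8 in control cells, so for most of these neighbours a lower level in ATRA+NIC cells could not have been seen. The nearest of them on the side of CCL3 was CCL18, whose geometric mean intensity was 64.1 in ATRA+NIC, 48.7 in ATRA and 53.7 in control cells.

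**Figure D3:**
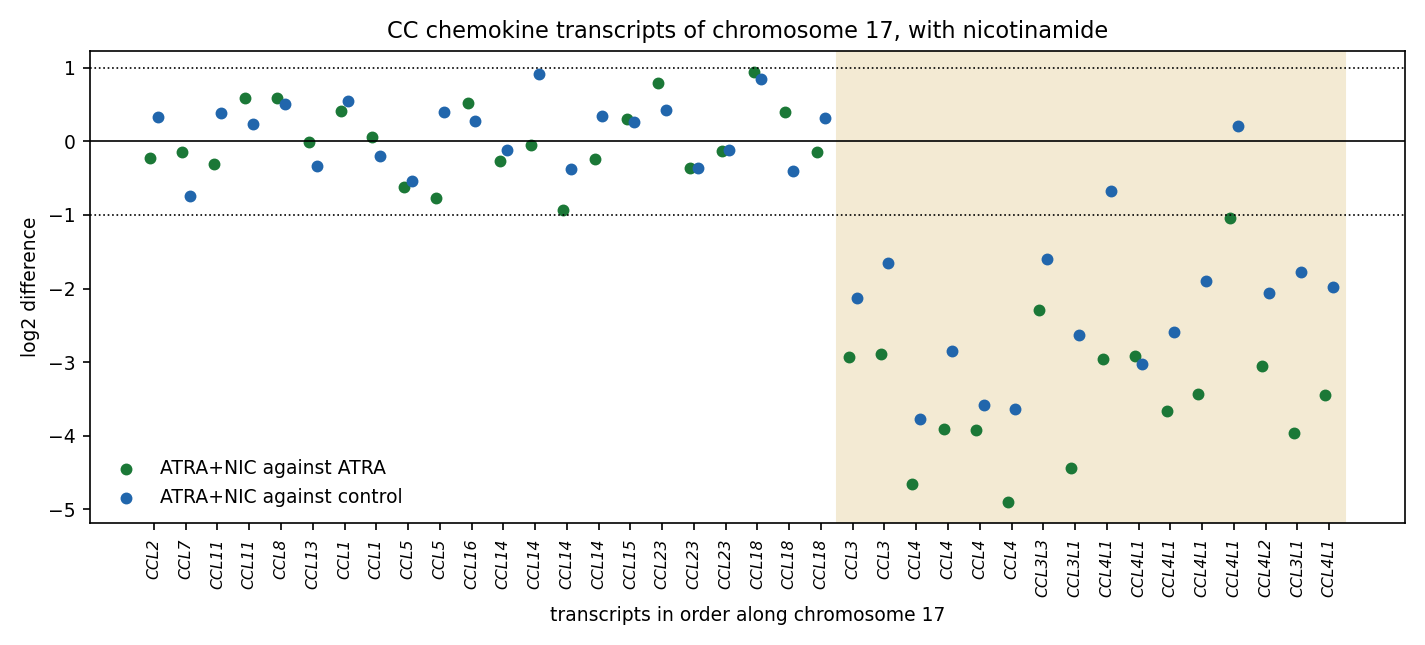
Log2 difference of each CC chemokine transcript of chromosome 17, in order of position, for ATRA+NIC against ATRA (green) and ATRA+NIC against control (blue), with the 16 transcripts of CCL3, CCL4 and their copies on the shaded ground and dotted lines at 2-fold. The 16 green points on the shaded ground lie between -4.90 and -1.04, and the 22 outside it between -0.93 and 0.94.

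The promoters of CCL3 and its copy CCL3L3 are shown because the probes of both genes moved the same way and because their letters show how alike the copies are. Each is the 250 bases before the start of the gene on RefSeq build GRCh38.p14, at chr17:36090144-36090393 and chr17:36196759-36197008, both on the minus strand and written 5′ to 3′ along the gene. Aligned with gaps, 234 of 252 positions were identical, 92.9%, with 8 gap positions. Capitals mark the TATA motif TATAAA, which begins 29 bases before the start in both.
CCL3: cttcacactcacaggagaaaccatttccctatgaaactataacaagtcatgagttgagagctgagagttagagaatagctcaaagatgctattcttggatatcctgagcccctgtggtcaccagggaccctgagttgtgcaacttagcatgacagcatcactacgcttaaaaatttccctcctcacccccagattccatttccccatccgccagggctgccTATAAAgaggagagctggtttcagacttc
CCL3L3: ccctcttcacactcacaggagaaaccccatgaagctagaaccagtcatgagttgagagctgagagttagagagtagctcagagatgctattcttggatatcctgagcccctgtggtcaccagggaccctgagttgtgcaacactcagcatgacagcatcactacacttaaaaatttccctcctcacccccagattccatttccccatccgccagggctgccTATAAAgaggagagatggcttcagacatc
RefSeq sequence was at hand for the promoters of 6 members, CCL3, CCL20, CCL22, CCL26, CCL27 and CCL28. The motif TATAAA was found on either strand in 10.7% of all 35116 promoter windows of the same length.

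CCL20, also called MIP-3 alpha, attracts dendritic cells and T cells that carry CCR6 and is a product of activated keratinocytes. It lies at chr2:228386801-228390514. Its 2 transcripts had intensities of 14.0 and 14.1 in ATRA+NIC cells, 58.8 and 72.0 in ATRA cells, and 27.6 and 25.4 in control cells. The ATRA array was the one on which CCL20 exceeded 50, by a small margin. The measured log2 difference was 1.30 between ATRA and control cells and -2.22 between ATRA+NIC and ATRA cells. The floor leaves at least 1.30-fold in both comparisons, so the size of these differences is not known. Between ATRA+NIC and control cells both sides were under 50 and no fold is given.

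CCL22, also called MDC, and CCL26, also called eotaxin-3, belong to allergic inflammation. CCL22 attracts T cells through CCR4 and lies at chr16:55950218-55957602. Its 2 transcripts had intensities of 101 and 70.1 in ATRA+NIC cells, 222 and 191 in ATRA cells, and 72.6 and 101 in control cells. Both were higher with ATRA than on the other 2 arrays, which overlap. At the level of the gene CCL22 was 2.41-fold higher in ATRA than in control cells and 2.45-fold lower in ATRA+NIC than in ATRA cells. The difference between ATRA+NIC and control was -0.02, with transcripts at -0.52 and 0.48.

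CCL26 attracts eosinophils through CCR3, lies at chr7:75236777-75257000 and has 4 transcripts. They had intensities of 52.7, 98.9, 45.5 and 67.3 in ATRA+NIC cells, 96.0, 126, 50.6 and 102 in ATRA cells, and 27.2, 78.6, 32.2 and 24.1 in control cells. Each of the 4 was highest with ATRA and lowest in control cells, with ATRA and nicotinamide together in between. The gene was at least 1.59-fold higher in ATRA than in control cells, with a measured log2 difference of 1.31 and transcripts between 0.65 and 2.08. It was at least 1.16-fold higher in ATRA+NIC than in control cells, with a measured difference of 0.82, while ATRA+NIC against ATRA gave -0.49.

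CCL27 and CCL28 are the members of normal epithelia, and both bind CCR10. CCL27, also called CTACK, is made by keratinocytes and guides T cells to the skin. It lies at chr9:34651892-34652689. Its single transcript had an intensity of 120 in ATRA+NIC, 81.0 in ATRA and 111 in control cells. CCL27 was thus lowest with ATRA, 1.37-fold below control, and 1.49-fold higher in ATRA+NIC than in ATRA cells. It was the one member of the 9 with a negative difference for ATRA against control and the one with a positive difference for ATRA+NIC against ATRA. Both folds were under 2. CCL28, which is made by mucosal epithelia and lies at chr5:43412503-43448229, had 4 transcripts with intensities of 25.4 to 36.9 in ATRA+NIC, 17.5 to 55.5 in ATRA and 16.2 to 28.8 in control cells. One of them reached 50, on the ATRA array, so no difference of CCL28 could be measured.

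The 9 members were chosen with earlier results of these data known, so the shares set beside their counts are no test. Taken over all 9 members, ATRA against control gave a median log2 difference of 0.89, beside -0.03 over all measured genes. By measured values 8 of the 9 were higher, as were 11251 of all 23595 genes. The 8 include CCL28, whose difference could not be measured. With values under 50 set to 50 the median of the members was 0.62. CCL3, CCL20, CCL22 and CCL26 were at least 2-fold higher by their measured values, 4 of 9 members, against 4.23% of all measured genes. With values under 50 set to 50, CCL20 and CCL26 were under 2-fold. None was 2-fold lower, against 3.22%. Among genes passing the filter 1 of 4 members was called higher, CCL3, against 3.83%, and none lower, against 2.06%. Of the 22 single transcripts 9 were at least 2-fold higher by measured values, against 5.33%, and none lower, against 4.12%. Among the 9, the 2 of CCL20 and the 2 of CCL26 had control values under 50, so the size of their folds is not known.

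For ATRA+NIC against ATRA the median of the members was -0.70, beside 0.04 over all measured genes. By measured values 8 of the 9 were lower, as were 10793 of all 23595 genes. The 8 again include CCL28, at -0.08, whose difference could not be measured. The median of the members was -0.46 with values under 50 set to 50. CCL3, CCL4, CCL20 and CCL22 were at least 2-fold lower, 4 of 9 members, against 4.12% of all measured genes, and none was 2-fold higher, against 3.09%. With values under 50 set to 50, CCL20 was under 2-fold. Among genes passing the filter 2 of 4 members were called lower, CCL3 and CCL4, against 3.74%, and none higher, against 1.35%. CCL3 and CCL4 passed it through their ATRA and control levels only. Of the 22 single transcripts 10 were at least 2-fold lower by measured values, against 5.19%, and none higher, against 3.83%. Among the 10, the 2 of CCL20 and the 4 of CCL4 had ATRA+NIC values under 50. The ATRA array stands in both of these comparisons, on opposite sides, so that their opposite signs are not separate observations.

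For ATRA+NIC against control, which does not use the ATRA array, the median of the members was -0.02, beside 0.00 over all measured genes. CCL3 and CCL4 were at least 2-fold lower, 2 of 9 members, against 2.08% of all measured genes, and none was 2-fold higher, against 2.32%. They are likewise 2 of the 4 members passing the filter, against 0.971%, and none of the 4 was called higher, against 1.03%. CCL3 and CCL4 passed the filter through their ATRA and control levels only. With the filter on the mean over arrays 1 of them was left. Of the 22 single transcripts of the members 6 were at least 2-fold lower, against 2.89%, and 1, of CCL26, was at least 2-fold higher, against 2.95%. The control value of that CCL26 transcript, 24.1, was under 50, so the size of its fold is not known. As a measure of the noise between probe sets, transcripts of 1 gene were compared over the 7074 genes passing the filter with more than 1 transcript. Their pooled SD was 0.31 for ATRA against control, 0.30 for ATRA+NIC against ATRA and 0.24 for ATRA+NIC against control. This is the spread between transcripts on the same arrays, not between cultures. The differences of CCL3 and CCL4 with nicotinamide are several times that size, and those of CCL2 and CCL27 are less than 2 times that size. The measure leaves out genes below the filter, such as CCL27, and genes of 1 transcript, such as CCL2. How large it is near background, where CCL4 lay in ATRA+NIC cells, was not measured.

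**Figure D4:**
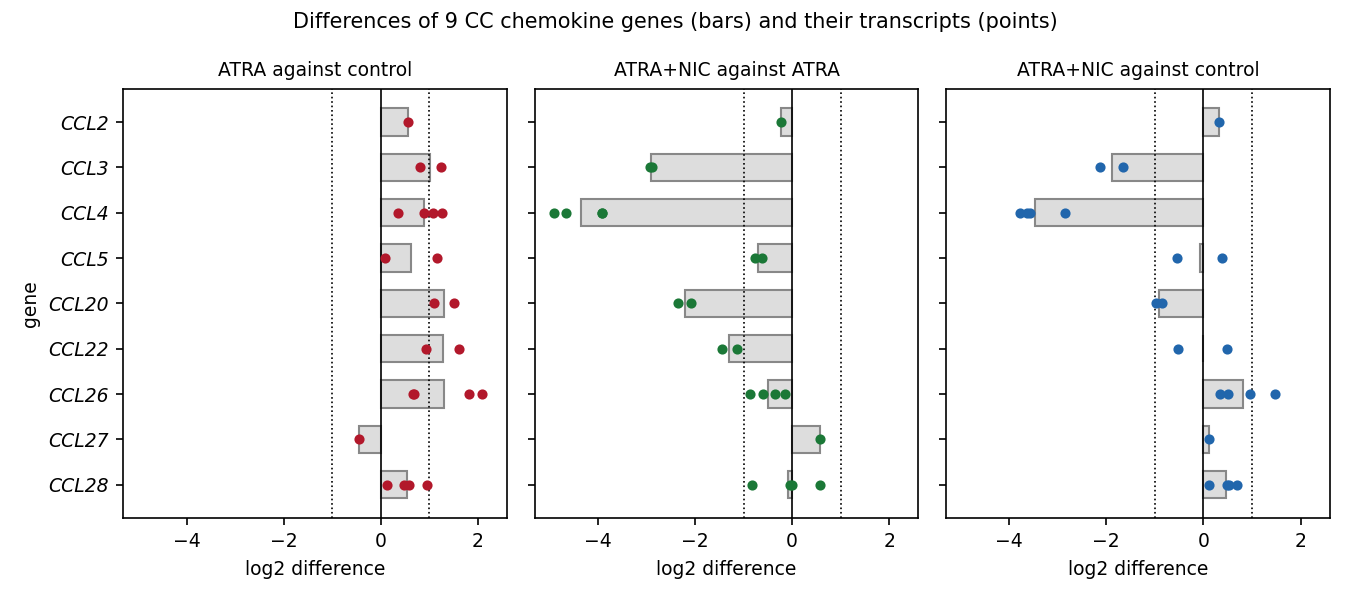
Log2 difference of each of the 9 CC chemokine genes (bars) and of their single transcripts (points) for ATRA against control, ATRA+NIC against ATRA and ATRA+NIC against control, with dotted lines at 2-fold. The bars of CCL3 and CCL4 reach -1.89 and -3.46 in the last panel, while those of CCL5, CCL22 and CCL27 end between -0.07 and 0.12. In that panel CCL2 lies at 0.33, CCL26 at 0.82, CCL28 at 0.45 and CCL20 at -0.92. CCL20 and CCL28 were under 50 on both arrays compared there.

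CCL20 and CCL22 were both past 2-fold by measured values in the comparisons with the ATRA array. So were CCL3 in both comparisons and CCL26 between ATRA and control cells, and neither holds an NF-kappaB motif in its window. The promoters of CCL20 and CCL22 are shown because these are the members, of the 6 with a promoter sequence, that hold the motif. Each is again the 250 bases before a start on RefSeq build GRCh38.p14, chr2:227813592-227813841 for CCL20 and chr16:57358533-57358782 for CCL22, both on the plus strand. For CCL22 the start is that of the RefSeq promoter table at position 57358783, which lies inside the gene as RefSeq annotates it, from position 57357909. Capitals mark the NF-kappaB motif and, in CCL20, TATAAA.
CCL20: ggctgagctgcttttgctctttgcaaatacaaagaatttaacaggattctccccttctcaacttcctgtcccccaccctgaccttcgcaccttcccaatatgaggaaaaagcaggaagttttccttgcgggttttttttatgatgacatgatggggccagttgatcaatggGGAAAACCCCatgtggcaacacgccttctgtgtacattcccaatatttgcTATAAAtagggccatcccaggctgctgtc
CCL22: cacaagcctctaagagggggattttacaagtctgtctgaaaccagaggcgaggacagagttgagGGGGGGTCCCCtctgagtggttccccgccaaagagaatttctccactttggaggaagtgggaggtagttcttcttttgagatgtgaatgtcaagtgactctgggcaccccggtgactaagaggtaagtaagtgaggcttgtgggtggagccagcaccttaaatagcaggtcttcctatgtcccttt
In CCL20 the NF-kappaB match lies on the opposite strand and begins 79 bases, and TATAAA 29 bases before the start. In CCL22 the NF-kappaB motif matches at 186 and at 185 bases before the start, in frames that overlap each other. An NF-kappaB match on either strand was present in 9.96% of all 35116 promoter windows. CCL20 also holds AGGTCA, the half-site of the retinoic acid receptors, on the opposite strand at 172 bases before the start, a motif found in 12.1% of windows. CCL27 holds the AP-1 motif TGANTCA at 65 bases before the start, found in 6.57% of windows. The STAT6 motif, found in 5.38% of windows, matched none of the 6 members. For CCL26 the window was chr7:75789747-75789996 on the minus strand. It lies inside the gene as RefSeq annotates it, from position 75791597, so the bases before that annotated start were not searched. These matches describe letters in the windows and not binding.

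The array also measured 19 other CC chemokine genes with 37 transcripts. Outside the copies of CCL3 and CCL4, none of them passed the filter. Their median log2 difference was -0.03 with ATRA relative to control. With ATRA+NIC it was -0.02 relative to ATRA and 0.08 relative to control. CCL3L1 and CCL4L1, 2 of the 19, were at least 2-fold higher in ATRA than in control cells, against 4.23% of all measured genes, and none of the 19 was 2-fold lower. In ATRA+NIC against ATRA, 5 of 19 were at least 2-fold lower, against 4.12%. They were the 4 copies and CCL19, whose values were under 50 on all 3 arrays. CCL17, the partner of CCL22 as a ligand of CCR4, had a geometric mean intensity of 45.6 in ATRA+NIC, 76.2 in ATRA and 40.5 in control cells. It was highest with ATRA, as CCL22 was, but close to the floor.

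Of the 14 receptors measured, CCR10 passed the filter, with an intensity of 284 in ATRA+NIC, 372 in ATRA and 326 in control cells. This receptor of CCL27 and CCL28 was less than 2-fold different in every comparison. CCR7, the receptor that takes leukocytes to lymph nodes, had 53.5 in ATRA+NIC, 128 in ATRA and 81.9 in control cells and was 2.39-fold lower in ATRA+NIC than in ATRA cells. CCR1 had 52.3 in ATRA+NIC, 56.6 in ATRA and 58.3 in control cells. CCR2, CCR3, CCR4 and CCR6, receptors of CCL2, CCL26, CCL22 and CCL20, had mean levels under 50 on all 3 arrays, although 1 transcript each of CCR2 and CCR6 exceeded 50 with ATRA, and that of CCR6 also in control cells. None of the 14 was 2-fold different between ATRA and control, where 4.23% of all measured genes were higher and 3.22% lower. At such shares few of 14 genes would be. For ATRA+NIC against ATRA, CCR7 was the 1 of 14 that was called lower, against 4.12%.

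A list of 34 genes that regulate the transcription or the messenger RNA of chemokines was measured in full, and 32 passed the filter. The list was chosen with earlier results of these data known, so the shares set beside its counts are no test. In ATRA against control 15 of the 34 were at least 2-fold higher and none was lower, with a median of 0.92, against 4.23% and a median of -0.03 over all measured genes. In ATRA+NIC against ATRA 14 were at least 2-fold lower and none was higher, with a median of -0.79, against 4.12% and a median of 0.04. In ATRA+NIC against control 1 was higher and 4 were lower, with a median of 0.07, against 2.32% and 2.08% and a median of 0.00.

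Among the cytokines that switch on chemokine genes in keratinocytes, IL1A had an intensity of 411 in ATRA+NIC, 3952 in ATRA and 1062 in control cells. IL1B had 1826 in ATRA+NIC, 8000 in ATRA and 3770 in control cells, and TNF had 108 in ATRA+NIC, 353 in ATRA and 339 in control cells. All 3 were lowest with nicotinamide, as CCL3 and CCL4 were, and were 2.58-fold, 2.07-fold and 3.14-fold lower in ATRA+NIC than in control cells. TNF differed from the interleukins in being nearly equal in ATRA and control cells, 1.04-fold apart.

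The NF-kappaB subunits RELB and NFKB2 were 2.17-fold and 2.22-fold higher in ATRA than in control cells, while RELA and NFKB1 were within 1.34-fold. NFKBIZ and TNFAIP3, a cofactor and an inhibitor of NF-kappaB that are themselves its targets, were 3.06-fold and 2.88-fold higher in ATRA than in control cells. They were 2.68-fold and 3.79-fold lower in ATRA+NIC than in ATRA cells. BIRC3, another target, was 4.73-fold higher in ATRA than in control cells and was the one regulator that was at least 2-fold higher in ATRA+NIC than in control cells, at 2.06-fold. The other genes called in either comparison with the ATRA array were NFKBIE, the kinase gene MAP3K14, the adaptor gene TRAF1, and JUN, FOS, FOSL1, CEBPB, DUSP1 and ZFP36. The fold of NFKBIE between ATRA+NIC and ATRA was 1.92 with values under 50 set to 50.

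Of the AP-1 genes, FOS had an intensity of 165 in ATRA+NIC, 4372 in ATRA and 211 in control cells, and JUN had 107 in ATRA+NIC, 1683 in ATRA and 325 in control cells. JUN was 3.05-fold lower in ATRA+NIC than in control cells. ZFP36, whose product speeds the decay of cytokine messenger RNA, had 774 in ATRA+NIC, 4987 in ATRA and 889 in control cells. The genes of the pathway to CCL26 by interleukins 4 and 13 were less than 2-fold different in all 3 comparisons: STAT6 was 1.60-fold higher in ATRA+NIC than in ATRA cells and IL4R was within 1.13-fold throughout.

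The genes closest to CCL3 and CCL4 in pattern were found by the Euclidean distance of log2 levels over the 3 arrays, after each gene's mean was taken off, among the 11140 genes that passed the filter, after genes with only a provisional name, such as that of a locus or a clone, were set aside. With 3 arrays many genes can be near by this measure. For CCL3 they were CD3E, a subunit of the T cell receptor complex, at 0.061, CCL4L1 at 0.19 and NDRG1, a gene of stress and differentiation, at 0.20. CD3E had an intensity of 70.6 in ATRA+NIC, 501 in ATRA and 251 in control cells. For CCL4 they were PRF1, the perforin of cytotoxic cells, at 0.89, CCL3L1 at 0.97 and CCL3 itself at 1.23. PRF1 had 31.7 in ATRA+NIC, 351 in ATRA and 149 in control cells.

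CD3E is a gene of T cells and PRF1 one of cytotoxic cells. The leukocyte markers therefore belong beside the result for CCL3 and CCL4, which leukocytes also make. Of the 20 markers, 8 were at least 2-fold lower in ATRA+NIC than in ATRA cells, PTPRC, CD3D, CD3E, CD3G, CD4, CD79A, CSF1R and FCER1G, against 4.12% of all measured genes, and none was higher. PTPRC, CD3D and CD79A, 3 of the 20, were at least 2-fold higher in ATRA than in control cells, against 4.23%, and none was lower. With values under 50 set to 50, CD3D and CD3G were under 2-fold. Their summed intensity was 3492 in ATRA+NIC, 5869 in ATRA and 3275 in control cells, most of it from CD68, and 13, 5 and 8 of the 20 genes were under 50 on these arrays. PTPRC, which all leukocytes carry, had 18.5 in ATRA+NIC, 151 in ATRA and 33.7 in control cells. In ATRA+NIC cells CD3E, CD3G and FCER1G were also at least 2-fold lower than in control cells by measured values, against 2.08% of all measured genes, and CD3E alone with values under 50 set to 50. The marker list, too, was chosen with earlier results of these data known. The part of the leukocyte genes in the values of CCL3 and CCL4 was not tested.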

How the data were processed

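Total RNA of HaCaT cells was hybridised to 3 single-colour NimbleGen arrays labelled with Cy3, 1 array for each of ATRA+NIC, ATRA and control. The authors deposited linear intensities of 45033 transcripts per array, which per the file headers and labels are gene calls by RMA. This method subtracts background, brings the arrays to a common distribution and summarises the probes of a transcript, so small values are shaped by it most. Its software was not stated. The value table deposited by the authors held the same intensities for the 31275 transcripts of at least 50 on all 3 arrays, 9 transcripts of 6 chemokines among them, and served as an alternative. Its unused columns of samples numbered 0.

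No scaling was added. Names came from the files, updated through Entrez numbers to RefSeq symbols of GRCh38.p14 (20230 of 23619 matched), and 2086 transcripts without a name were left out. Gene levels are means of log2 intensities, computed here from the deposited values. Differences were called at 2-fold or more, with no test, since each group has 1 array. The 9 chemokines and the lists of receptors, regulators, other chemokines and cell type markers were chosen with earlier results of these data known. All 9 were named, together with other CC chemokines and regulators past 2-fold, receptors and the 3 nearest genes by pattern. Some listed genes are not reported here. CCL17 and CCL18, outside that rule, were named after their values had been seen, as were the regulators RELA, NFKB1, STAT6 and IL4R and single markers. Promoter sequences are from RefSeq, GRCh38.p14. Motifs were searched on both strands. Alternatives covered the transcript rule, offset, floor, scaling, filter, fold and value table. Python 3.11.15, numpy 2.4.6, pandas 2.3.3 and matplotlib 3.10.9 were used.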

Additional observations from a re-analysis of the deposited data

How the results depend on the processing

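Of 345 values recomputed under alternatives, 263 stayed close to the reported value, 82 moved and none of the called values changed sign. CCL4 kept a difference of at least 2-fold in 7 of 7 settings in both comparisons with nicotinamide, at log2 values of -4.90 to -2.23 against ATRA and -3.63 to -1.54 against control. CCL3 did so in 8 of 8, at -2.93 to -2.20 against ATRA and -2.13 to -1.34 against control. For ATRA against control CCL3 ranged over 0.80 to 1.02 and was called in 6 of 8 settings, CCL26 over 0.46 to 1.74 (4 of 8) and CCL22 over 0.72 to 1.62 (7 of 8). CCL20 kept 0.38 there and -0.38 against ATRA with values under 50 set to 50. The median over the members for ATRA against control was 0.52 with an offset of 100 before log2.

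Members called among those passing the filter numbered 1 higher for ATRA against control, which became 0 with the offset, 4 with no filter, 0 with a filter at the 75th percentile, 3 at 1.5-fold and 0 at 3-fold. The 2 lower for ATRA+NIC against ATRA became 1 in the value table, which holds no CCL4 because its values are under 50, 4 with no filter, 1 with a filter on the mean over arrays and 0 at the 75th percentile. The 2 lower for ATRA+NIC against control became 1 in the value table, 1 with the filter on the mean and 0 at the 75th percentile. Stricter filters and tables test fewer genes.

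Counts over all genes for ATRA against control were 477 higher, against 997 with no filter, 234 at the 75th percentile, 1234 at 1.5-fold and 193 at 3-fold. They were 257 lower, against 130 with the offset, 125 in the value table, 759 with no filter, 74 at the 75th percentile, 1121 at 1.5-fold and 58 at 3-fold. For ATRA+NIC against ATRA 168 were higher, against 75, 89, 728, 48, 982 and 18 in that order of settings. Lower were 466, against 310 in the value table, 973 with no filter, 221 at the 75th percentile, 1181 at 1.5-fold and 183 at 3-fold. For ATRA+NIC against control 128 were higher, against 74, 72, 548, 44, 494 and 38 with offset, value table, no filter, 75th percentile, 1.5-fold and 3-fold, and 121 were lower, against 69, 75, 491, 48, 483 and 36.

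No paired analysis was possible because each group has 1 array, and for the same reason no array was left out. With 1 array per condition, a difference between cultures cannot be told apart from one of treatment, and nicotinamide without ATRA was not measured. Signal over background limits CCL20, CCL26 and CCL28, whose values lie near the floor, and the size of the difference of CCL4, and the probes of CCL3, CCL4 and their copies are not known to tell these genes apart.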
